A study of Mus musculus with 10 samples.

Results

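RNA of 10 genes of fibroblast growth factor (FGF) signalling was read in supporting cells of the murine utricle, a balance organ of the inner ear. They were the receptors Fgfr1, Fgfr2 and Fgfr3, the feedback inhibitors Spry1, Spry2, Spry4, Spred1 and Dusp6, and the Ets transcription factors Etv4 and Etv5. The activity of the pathway was not measured. These 10 genes were listed by name, out of 48709 genes in each table, 21695 of them protein-coding. The 10 libraries hold RNA of supporting cells sorted by fluorescence from utricles of Lfng-EGFP mice, explanted at postnatal day 21. Utricles received 0.1% DMSO for 5 days (DMSO_d5, 3 libraries), 10 μM TRULI in 0.1% DMSO for 5 days (TRULI_d5, 3 libraries), or either treatment followed by 5 days without it (DMSO_d10 and TRULI_d10, 2 libraries each). TRULI inhibits the Lats kinases of the Hippo pathway, which restrain the coactivator Yap. The study's methods give a growth medium with epidermal and fibroblast growth factor for explants, so every group may have had added ligand. The reporter that was used for sorting marks supporting cells through Lfng, and each library is a bulk sample, in which fewer cells of a type and less RNA per cell cannot be told apart.

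FGF ligands bind receptor tyrosine kinases, which signal through the adaptor Frs2, Grb2, Ras and the kinases Raf, Mek and Erk. Active Erk raises transcription of its own brakes. Sprouty and Spred proteins act at the level of Ras and Raf, and Dusp6 is a phosphatase that removes phosphate from Erk in the cytoplasm. Etv4 and Etv5 are Ets factors induced by the same pathway, and the levels of all these genes are widely read as a sign of FGF activity. In the inner ear, FGF signalling takes part in the induction of the otic placode and in the choice between hair cells and supporting cells.

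Label and deposited file name gave different conditions for 4 of the 10 libraries. The libraries labelled TRULI_d5 replicates 1 and 2 were named DMSO_d10 replicates 1 and 2, and those labelled DMSO_d10 replicates 1 and 2 were named TRULI_d5 replicates 2 and 3. The library labelled TRULI_d5 replicate 3 was named TRULI_d5 replicate 1. The 3 DMSO_d5 and both TRULI_d10 libraries had 1 condition in both. Ccn2, a target of Yap, stood at 827 CPM (counts scaled to a common library size, with TMM factors) in the library labelled TRULI_d5 replicate 3. It stood at 570 and 578 CPM in those labelled DMSO_d10, and at 18.3 CPM or less in the other 7. The high libraries are the 3 named TRULI_d5, so Ccn2 goes against the labels of these 4 libraries. The 7 Yap targets checked, Ccn2 among them, summed to 1368 to 1610 CPM in the 3 libraries named TRULI_d5 and to 91.1 to 542 CPM elsewhere. The 4 proliferation genes summed to 76.9 to 365 CPM there and to 13.9 CPM or less elsewhere. Both sums go with the deposited names and against these labels. Groups were formed by label, and each result is also given by deposited name.

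Total counts ran from 2463872 to 6255149 per library. The mitochondrial RNA mt-Rnr2 took 13% to 26.4% of counts in DMSO_d5, in the library labelled TRULI_d5 replicate 3 and in those labelled DMSO_d10. It took 1.45% to 2.53% in TRULI_d10 and in the libraries labelled TRULI_d5 replicates 1 and 2. The same 4 libraries had 25.2 to 120 CPM of Lfng, against 348 to 653 CPM in the other 6. All 12 supporting-cell markers were detected in every library, with summed levels of 11383 to 16406 CPM in DMSO_d5 and 5452 to 12923 CPM elsewhere. The 10 hair-cell markers summed to 376 to 1501 CPM, of which 0 to 2 had no count. The 5 Schwann cell and glial markers summed to 182 and 265 CPM in TRULI_d10 and to 102 to 174 CPM elsewhere. Mesenchymal markers summed to 21.3 to 116 CPM, neuronal markers to 0.855 to 102 CPM, and those of macrophages, endothelium and melanocytes to 21.5 CPM or less. The part of these differences in the results below was not tested. The 4 libraries with low mt-Rnr2 are, by deposited name, all those of DMSO_d10 and TRULI_d10, so under that grouping low mt-Rnr2 and the later time cannot be told apart.

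Per length, Dusp6 was the most abundant of the 10 genes and Fgfr2 and Fgfr3 were close to absent. Dusp6 had a median of 202 fragments per kilobase of transcript, scaled to library size (FPKM) over the 10 libraries, from 67.5 to 578, and was the highest of the 10 in each library. That median exceeded the median of 98.3% of protein-coding genes. Etv5, Spry2 and Spred1 followed with medians of 44.8, 41.2 and 38.8 FPKM. Etv5 exceeded Spry2 in 5 of 10 libraries and Spry2 exceeded Spred1 in 7, so their order was not stable. Fgfr1 had a median of 26.1 FPKM, and Etv4, Spry1 and Spry4 had 20.4, 20.2 and 19.2 FPKM. Etv4 was above Spry1 in 4 of 10 libraries, and these neighbours did not differ beyond their spread. Fgfr3 and Fgfr2 came last, with medians of 0.362 and 0.32 FPKM, and Spry4 exceeded Fgfr3 in all 10 libraries. The Fgfr1 level of 161 FPKM in the library labelled DMSO_d10 replicate 1 stood apart from 13.5 to 56.5 FPKM elsewhere. On the CPM scale, which does not use the effective length, the same library had 111 CPM, within the range of the others.

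**Figure D1:**
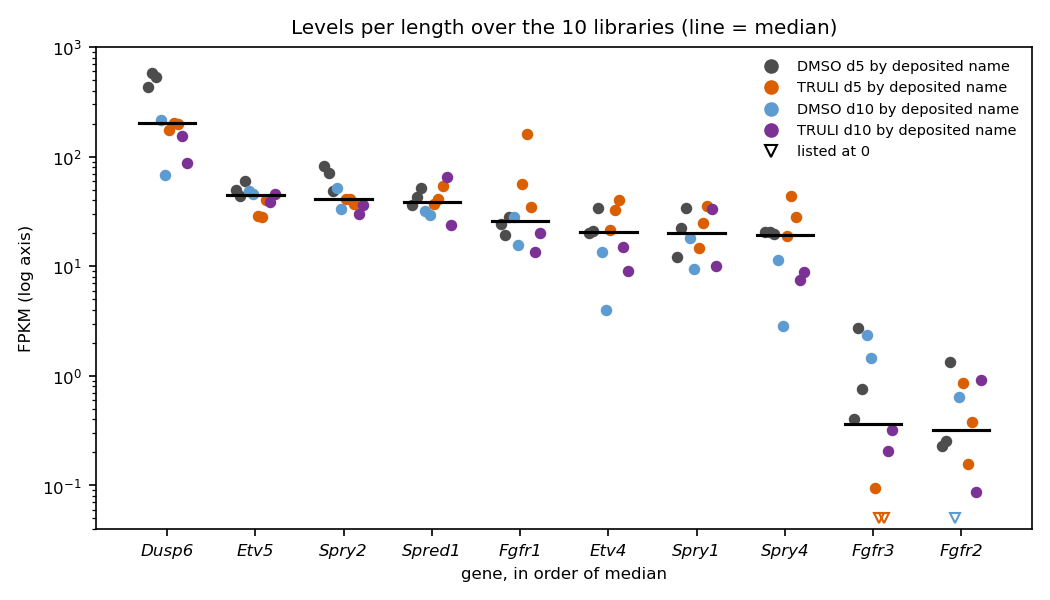
Level of each gene per length (FPKM, log axis) in the 10 libraries, with colours for the condition in the deposited name, a line at the median and open triangles for libraries listed at 0. Dusp6 spans 67.5 to 578 FPKM and is the highest gene in each library, and the medians of Fgfr3 and Fgfr2 lie below 1 FPKM.

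The promoter windows of the genes were searched for the motifs of Tead factors, the DNA-binding partners of Yap, of Ets factors and of AP-1. RefSeq windows of 300 bases on GRCm38.p6, from 250 before to 50 after a transcription start, were used for 7 of the 10 genes (9 windows). Both strands were searched for GGAATG (Tead), CCGGAA (Ets) and TGANTCA (AP-1), with N for any base, which 14.7%, 14.9% and 7.81% of 32851 windows held. Of the 9 windows, 1 held a Tead motif (Spry1), 1 held an Ets motif (Spry2) and 0 held an AP-1 motif. These 2 windows are shown with that of Dusp6, which held none of the 3 motifs and was the gene called in most comparisons. Motif matches are in capitals, each sequence is 5′ to 3′ on the strand of its gene, and a match is not a measured site. The Dusp6 window is chr10:99262981-99263280 (plus strand), that of Spry1 chr3:37639697-37639996 (plus strand) and that of Spry2 chr14:105896770-105897069 (minus strand).
Dusp6: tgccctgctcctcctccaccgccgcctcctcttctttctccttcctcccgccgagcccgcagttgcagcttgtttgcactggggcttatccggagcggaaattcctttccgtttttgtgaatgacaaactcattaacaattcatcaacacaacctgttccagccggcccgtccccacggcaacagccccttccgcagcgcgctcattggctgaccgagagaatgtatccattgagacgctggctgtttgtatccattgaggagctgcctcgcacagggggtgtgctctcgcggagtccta
Spry1: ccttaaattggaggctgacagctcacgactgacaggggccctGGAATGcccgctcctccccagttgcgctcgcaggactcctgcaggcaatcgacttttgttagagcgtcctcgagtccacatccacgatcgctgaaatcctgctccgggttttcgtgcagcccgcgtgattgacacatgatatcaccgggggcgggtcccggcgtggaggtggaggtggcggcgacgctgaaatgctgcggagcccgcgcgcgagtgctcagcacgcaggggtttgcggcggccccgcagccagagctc
Spry2: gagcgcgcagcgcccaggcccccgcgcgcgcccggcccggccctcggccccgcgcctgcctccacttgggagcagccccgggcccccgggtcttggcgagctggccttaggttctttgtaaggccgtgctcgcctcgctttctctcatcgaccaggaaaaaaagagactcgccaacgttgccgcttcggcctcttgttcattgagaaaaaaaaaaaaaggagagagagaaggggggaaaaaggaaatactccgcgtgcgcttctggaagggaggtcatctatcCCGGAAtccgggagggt

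Among the 3 receptors listed, Fgfr1 carried nearly all counts and was not called changed in any comparison. The receptor gene Fgfr4, outside the 10 genes and named after its values were seen, had 13.4 to 59.4 CPM. Fgfr1 (ENSMUSG00000031565, chr8:25513654-25575718, plus strand, GRCm38) had 76, 61.2 and 83 CPM in DMSO_d5. It had 97.5, 64.1 and 134 CPM in the libraries labelled TRULI_d5, 111 and 82.4 CPM in those labelled DMSO_d10, and 47.6 and 78 CPM in TRULI_d10. The groups overlapped, except that the libraries labelled DMSO_d10, and all 3 named TRULI_d5, had more than TRULI_d10. For TRULI_d5 against DMSO_d5, its log2 fold change was 0.45 by label (95% interval -0.26 to 1.17, adjusted p = 0.563, edgeR quasi-likelihood test) and 0.58 by deposited name (0.10 to 1.07, adjusted p = 0.264). Fgfr2 had at most 10 counts in a library and passed the filter on low counts in no comparison.

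Fgfr3 marks developing supporting cells of the auditory organ. It had 3, 25 and 8 counts in DMSO_d5, 53, 16 and 1 in the libraries labelled TRULI_d5, 0 and 0 in those labelled DMSO_d10, and 4 and 6 in TRULI_d10. The 3 libraries named TRULI_d5 thus held 1 count of Fgfr3 in all. At 0 counts, the limit is 3 counts, or 1.04 and 0.839 CPM of protein-coding counts in the libraries labelled DMSO_d10. This covers counting error only. Fgfr3 was called in none of the comparisons in which it passed the filter. With no filter, it was called lower in TRULI_d5 than in DMSO_d5 by deposited name (adjusted p = 0.0245) and in DMSO_d10 than in DMSO_d5 by label (0.00364), with 0 or 1 count in each library of the lower group. Those fits called 648 of 15177 and 832 of 14956 genes. The fitted log2 fold change of Fgfr3 for TRULI_d10 against DMSO_d10 by deposited name was -2.84 (95% interval -4.97 to -0.71, adjusted p = 0.968).

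Dusp6 was lower in every other library than in each DMSO_d5 library. Dusp6 (ENSMUSG00000019960, chr10:99263231-99267489, plus strand) had 1030, 1401 and 1268 CPM in the DMSO_d5 libraries, from 2223, 3618 and 4292 counts. The libraries labelled TRULI_d5 had 602, 219 and 382 CPM, those labelled DMSO_d10 had 435 and 493 CPM, and TRULI_d10 had 424 and 272 CPM. The ranges did not overlap, and this holds under both groupings because both give the same 3 libraries as DMSO_d5. The lowest DMSO_d5 library was 1.71-fold above the highest other one. Dusp6 was the only one of the 10 genes with this order, which 3.62% of 11861 protein-coding genes shared. Its level was 382 to 493 CPM in the 3 libraries outside DMSO_d5 that had high mt-Rnr2 and Lfng, and 219 to 602 CPM in the 4 with low values.

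**Figure D2:**
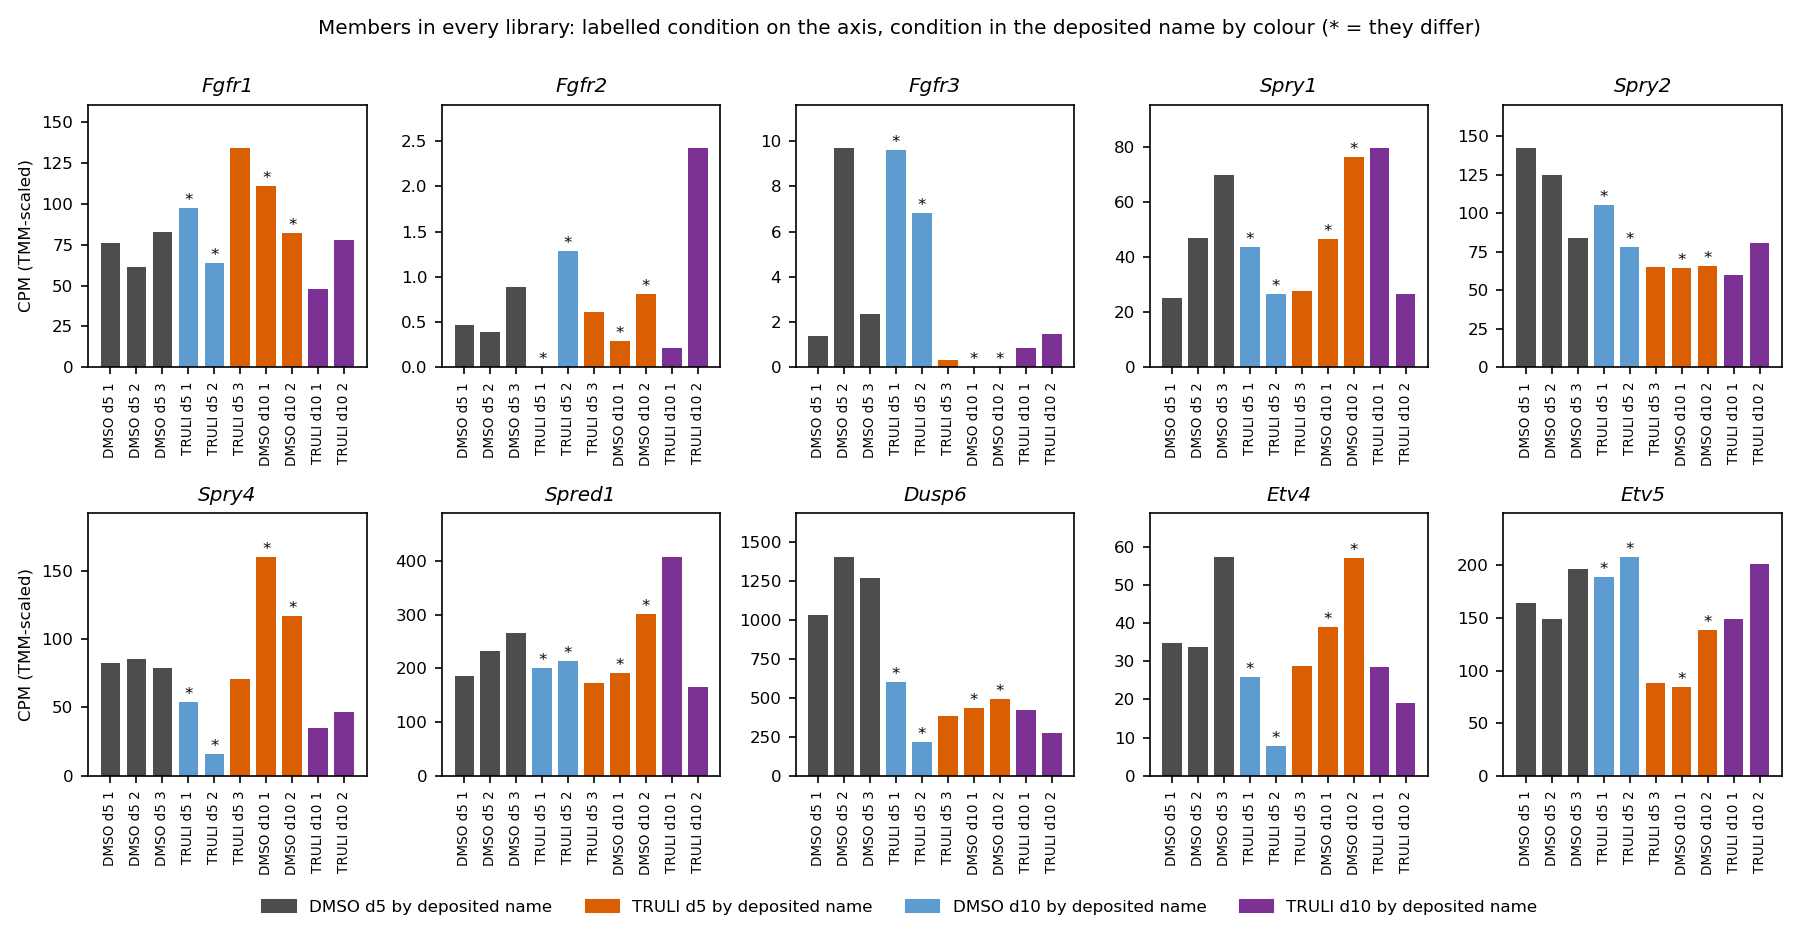
CPM of each gene in every library, with the labelled condition and replicate on the axis, the condition in the deposited name by colour and an asterisk where they differ. Dusp6 is at 1030 to 1401 CPM in the 3 DMSO_d5 libraries and at 219 to 602 CPM in the other 7, while Spry4 is highest, at 160 and 117 CPM, in the libraries labelled DMSO_d10 and named TRULI_d5.

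The other feedback inhibitors and the Ets factors were expressed in every library. Apart from Spry4 by label, their groups overlapped DMSO_d5 more than those of Dusp6. Spry1 (chr3:37639947-37644598, plus strand) had 25, 46.9 and 69.7 CPM in DMSO_d5, so the controls alone spanned most of the range of 25 to 79.4 CPM over the 10 libraries. Spred1 (chr2:117121374-117182279, plus strand) had 186, 233 and 265 CPM in DMSO_d5 and 165 to 407 CPM elsewhere, with both extremes in TRULI_d10. Neither gene separated DMSO_d5 from another group. Spry2 (chr14:105891947-105896819, minus strand) had 83.9 to 142 CPM in DMSO_d5 and 59.9 to 105 CPM elsewhere, and the libraries with 80.7 CPM or less included all of those labelled DMSO_d10 or TRULI_d10. Etv4 (chr11:101769742-101785371, minus strand) had 34.8, 33.7 and 57.3 CPM in DMSO_d5. It had 26, 7.69 and 28.7 CPM in the libraries labelled TRULI_d5, all below DMSO_d5, 38.9 and 57.1 CPM in those labelled DMSO_d10, and 28.5 and 19.1 CPM in TRULI_d10. The low Etv4 libraries were thus those labelled TRULI_d5 and both of TRULI_d10. Etv5 (chr16:22381309-22439719, minus strand) ran from 84.7 to 208 CPM and was lowest, at 84.7 to 139 CPM, in the 3 libraries named TRULI_d5. By label, Spry4 in DMSO_d5 (82.5, 85.2 and 78.6 CPM) overlapped no other group. The libraries labelled TRULI_d5 (54.1, 15.8 and 70.5 CPM) and TRULI_d10 (35.1 and 46.6 CPM) were below it. Those labelled DMSO_d10 (160 and 117 CPM) were above it. By deposited name, TRULI_d5 overlapped DMSO_d5. Spry4 and Etv4 had their lowest values, 15.8 and 7.69 CPM, in the same library, labelled TRULI_d5 replicate 2, in which Etv5 was highest.

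The first comparison asked what 5 days of TRULI did to these genes. By label, 0 of 9 genes that passed the filter were called, where 0.00939% of 10646 protein-coding genes were called higher and 0% lower. Dusp6 averaged 1233 ± 188 CPM (SD, n = 3) in DMSO_d5 and 401 ± 192 CPM (n = 3) in the libraries labelled TRULI_d5. Its log2 fold change was -1.59 (SE 0.43), with an adjusted p of 0.323 by edgeR and 0.0178 by DESeq2. DESeq2 called 250 of the 10646 genes by label. At an unadjusted p under 0.05, edgeR gave Dusp6 alone among the 10 genes and 13.9% of all genes. Without the library labelled TRULI_d5 replicate 3, whose Ccn2 was high, Dusp6 was called (log2 fold change -1.56, adjusted p = 0.0336).

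By deposited name, Dusp6 was the only one of 8 tested genes called, and it fell to 437 ± 55.7 CPM (SD, n = 3) in TRULI_d5. Its log2 fold change was -1.49 (SE 0.21, edgeR adjusted p = 0.00536), where 2.28% of 10952 genes were called higher and 1.28% lower. Spry2, the other feedback gene with no overlap in this grouping, had 142, 125 and 83.9 CPM in DMSO_d5 and 65.3, 64.1 and 66 CPM in the libraries named TRULI_d5 (log2 fold change -0.84, SE 0.24, adjusted p = 0.0969). Etv5 had 164, 149 and 197 CPM against 88.5, 84.7 and 139 CPM (log2 fold change -0.70, SE 0.24, adjusted p = 0.155). With the replicate number as a block, 3 of the genes were called: Dusp6 (-1.48, adjusted p = 6.46e-05), Spry2 (-0.80, adjusted p = 0.0223) and Etv5 (-0.72, adjusted p = 0.0171). The block raised the calls over all 10952 genes from 390 to 1193. With all 10 libraries in one fit, none of the 10 genes was called, and Dusp6 had an adjusted p of 0.0565. That fit called 123 of 11861 genes. Among only the 4 libraries of these groups whose label and name agreed, which leave 1 treated library that is assumed to vary like the others, the log2 fold change of Dusp6 was -1.67 (adjusted p = 0.0542).

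The hair-cell markers summed to 1320, 945 and 476 CPM in the libraries named TRULI_d5, against 638, 376 and 476 CPM in DMSO_d5. Of the 9 that were tested, 9 had a log2 fold change above 0 and 1 was called higher, with a median of 1.44, and their part in these differences was not tested. Of 12 supporting-cell markers, 0 were called higher or lower by deposited name (median log2 fold change -0.21).

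By edgeR with the filter and without the block, no other feedback or Ets gene was called in this comparison, and DESeq2 also called Spry2 by deposited name (log2 fold change -0.83, adjusted p = 0.0474). Over all 10952 genes, DESeq2 called 706 by deposited name and edgeR 390. Spry1 and Spred1 had log2 fold changes of -0.49 and -0.19 by label and 0.09 and -0.03 by deposited name. Etv4 had -0.97 by label (95% interval -1.99 to 0.06) and -0.01 by deposited name (-0.62 to 0.60). The median over the genes that passed the filter was -0.477 by label and -0.022 by deposited name, beside 0.041 and 0.010 over all genes tested. The sign of Spry4 turned with the grouping, from -0.77 by label (95% interval -1.75 to 0.20) to 0.51 by deposited name (-0.05 to 1.06). By label, each TRULI_d5 library was below each DMSO_d5 library, and by deposited name the groups overlapped.

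At 5 days after withdrawal, none of the 10 genes was called between TRULI and DMSO. By label, 0 of 8 were called, where 1.14% of 11562 genes were called higher and 1.15% lower. By deposited name, 0 of 9 were called, where 0% of 10845 genes were called in either direction by edgeR and 4.76% had an unadjusted p under 0.05, Fgfr3 among them. DESeq2 called 0 of the 10 genes by deposited name. By label, Spry4 came closest. It had 160 and 117 CPM in the libraries labelled DMSO_d10 and 35.1 and 46.6 CPM in TRULI_d10, without overlap (log2 fold change -1.78, SE 0.40, adjusted p = 0.0612). The same test called it with no filter (adjusted p = 0.0114) and under the replicate block (adjusted p = 0.0035), and so did DESeq2 (adjusted p = 0.00323). These settings called more genes over all. With no filter, 1296 of 14890 were called, by DESeq2 1435 of 11562 and under the block 1881 of 11562, against 265 in the main fit. Without TRULI_d10 replicate 1 or 2, the log2 fold change of Spry4 was -1.58 or -1.99, and without replicate 1 that of Etv4 was -1.33. These fits have 1 TRULI_d10 library, which is assumed to vary like the others. By deposited name, DMSO_d10 had 54.1 and 15.8 CPM of Spry4, on both sides of TRULI_d10 (log2 fold change 0.20, 95% interval -1.10 to 1.51). Dusp6 had log2 fold changes of -0.44 (95% interval -1.10 to 0.23) by label and -0.24 (-1.23 to 0.74) by deposited name.

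For TRULI_d10 against TRULI_d5, the comparison of withdrawal with presence of the compound, 0 of 9 genes were called by label, where 0% of 11473 genes were called higher or lower and 3.05% had an unadjusted p under 0.05, with 0 of the 10 genes among them. DESeq2 also called 0 of the 10. By deposited name, Spry4 was called lower in TRULI_d10, where 8.4% of 11697 genes were called higher and 6.37% lower. Of 12 supporting-cell markers, 4 were called lower and 0 higher (median log2 fold change -0.93). Their part was not tested. The libraries named TRULI_d5 had 70.5, 160 and 117 CPM of Spry4, above both TRULI_d10 libraries (log2 fold change -1.51, SE 0.41, adjusted p = 0.0425). The call was lost on leaving out any 1 of the 5 libraries and under the replicate block (adjusted p = 0.0612), with adjusted p from 0.00586 to 0.159 over the alternatives. Dusp6 had a log2 fold change of -0.33 (95% interval -0.92 to 0.25) by deposited name, so its level after withdrawal was not shown to differ from that under TRULI. Etv5 had 0.74 (0.11 to 1.38, adjusted p = 0.145) and Fgfr1 -0.80 (-1.51 to -0.10, adjusted p = 0.157).

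Control libraries at 10 days were compared with those at 5 days, and Dusp6 was again the gene called. By label, it fell to 464 ± 40.9 CPM (SD, n = 2), a log2 fold change of -1.39 (SE 0.26, adjusted p = 0.0138), where 0.532% of 11270 genes were called lower and 2.21% higher. Both libraries labelled DMSO_d10 were named TRULI_d5 and had high Ccn2, so this value may not describe controls. By deposited name, it fell to 410 ± 270 CPM (SD, n = 2), a log2 fold change of -1.56 (SE 0.42, adjusted p = 0.0336), where 8.36% of 10881 genes were called lower and 11.8% higher. The call by label was lost without DMSO_d5 replicate 2 (adjusted p = 0.0731) or without either library labelled DMSO_d10 (0.0884 and 0.0819), and in the fit of all 10 libraries (0.559). The call by deposited name was lost without any 1 DMSO_d5 library or without the library named DMSO_d10 replicate 2 (adjusted p from 0.0718 to 0.127). Without the library named DMSO_d10 replicate 1, the log2 fold change was -2.49 and Spry4 (-2.37, adjusted p = 0.00158) and Etv4 (-2.44, adjusted p = 0.00582) were also called. That fit rests on 1 DMSO_d10 library, which had the lowest Dusp6, Spry4 and Etv4 of all 10 (219, 15.8 and 7.69 CPM) and is assumed to vary like the others. With no filter, Spry4 was also called by deposited name (-1.17, adjusted p = 0.0373), where 2971 of 14879 genes were called. By deposited name, 5 of 9 tested hair-cell markers were called lower in DMSO_d10 than in DMSO_d5 (median log2 fold change -2.47). Of 12 supporting-cell markers, 4 were called lower and 0 higher (median -0.94). The part of these markers was not tested. Spry4 had 0.78 by label (95% interval 0.28 to 1.28) and -1.18 by deposited name (-2.12 to -0.25), so its direction turned with the grouping.

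TRULI_d10 against DMSO_d5 rests on 5 libraries whose labels and names agree, and it called 2 of 8 tested genes, both feedback inhibitors and both lower. In this comparison 9.29% of 11100 genes were called lower and 11.9% higher, and treatment and time in culture cannot be told apart. Dusp6 averaged 348 ± 108 CPM (SD, n = 2) in TRULI_d10, a log2 fold change of -1.84 (SE 0.30, adjusted p = 0.00746). The call held on leaving out any 1 DMSO_d5 library, with adjusted p up to 0.0498. Without TRULI_d10 replicate 1 or 2 the log2 fold change was -2.17 or -1.54. In the fit of all 10 libraries grouped by label, the call was lost (adjusted p = 0.0618), and 11 of 11861 genes were called, against 2356 of 11100. That fit takes its spread from label groups that include the 4 libraries whose names differ, and it was not run by deposited name. It cannot tell whether the Dusp6 call is stable. Spry4 had 82.5, 85.2 and 78.6 CPM in DMSO_d5 against 35.1 and 46.6 CPM, a log2 fold change of -1.01 (SE 0.31, adjusted p = 0.0492). This call held in 4 of 12 alternatives, with adjusted p from 0.0187 to 0.23. It was lost on leaving out any 1 DMSO_d5 library or TRULI_d10 replicate 1. Both TRULI_d10 libraries were among those with low mt-Rnr2 and Lfng, which all DMSO_d5 libraries were not. Of 12 supporting-cell markers, 5 were called lower and 0 higher in this comparison, with a median log2 fold change of -1.09. Their part in these differences was not tested. Spry2 was not called (-0.74, 95% interval -1.42 to -0.07), nor was Etv4 (-0.83, -1.62 to -0.03).

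**Figure D3:**
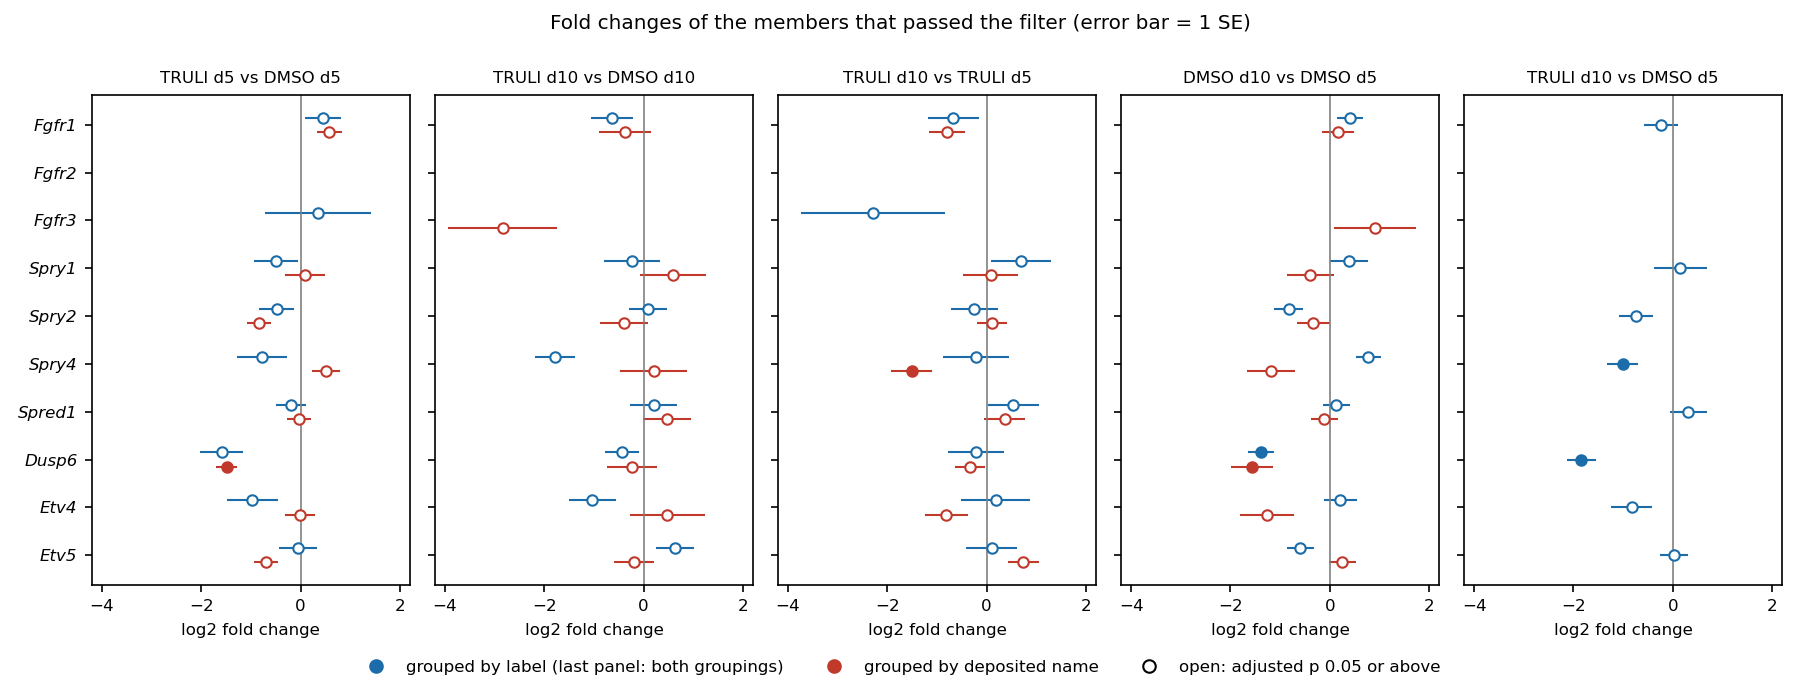
Log2 fold changes (points, with bars of 1 SE) of the genes that passed the filter in 5 comparisons, grouped by label (blue) or deposited name (red), with filled points at an adjusted p under 0.05. Filled points stand for Dusp6 in 4 fits, from -1.39 to -1.84, and for Spry4 in 2 fits, at -1.51 and -1.01.

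The difference between the TRULI effects at 10 and at 5 days was tested as an interaction, and 0 of 9 genes were called under either grouping, where 0% of 11861 genes were called higher or lower. An unadjusted p under 0.05 was reached by 6.83% of genes by label, with 0 of the 10, and 9.43% by deposited name, with Dusp6 as 1 of the 10. DESeq2 called 0 of the 10 under either grouping. The largest difference in size for a gene outside the sparse Fgfr3 was that of Dusp6 by deposited name, at 1.22 (95% interval 0.19 to 2.24, adjusted p = 0.501). These comparisons share control libraries and are not independent of each other.

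The 7 feedback and Ets genes varied partly in separate directions across the 10 libraries. Etv4 followed Spry4 (Pearson r = 0.86 of log2 CPM) and Spry1 followed Spred1 (0.85), whereas Etv5 and Spry4 had r = -0.60. Dusp6 had r = 0.67 with Etv4, 0.64 with Spry2 and 0.07 with Etv5. These values describe 10 libraries of 4 conditions, so they mix condition and library effects. The protein-coding genes most like the mean standardized level of the 7 genes were Rlbp1 (r = 0.98), a retinaldehyde-binding protein of supporting glia, Irf2bpl (0.96), Hsd17b11 (0.94), the Ets factor Etv1 (0.94) and Tcaf2 (0.93).

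The rest of the pathway was read from 69 further genes. Of the 53 that were tested, 16 (30.2%) were called in at least 1 comparison, near the 31.2% of all 12166 protein-coding genes tested. By label, the comparison at 5 days called 0 of them. By deposited name it called 2 of 13 early targets of Erk higher, Myc and Ccnd1, and 3 lower, and 0 of the 5 tested receptors and coreceptors, 4 ligands, 18 adaptors and cascade genes and 10 other feedback genes. Over all 10952 genes, 2.28% were called higher and 1.28% lower. Myc, a growth regulator, had 0.927, 4.26 and 5.02 CPM in DMSO_d5 and 31.4, 30.2 and 31.2 CPM in the libraries named TRULI_d5 (log2 fold change 3.13, SE 0.46, adjusted p = 0.00576). Ccnd1, which encodes cyclin D1, had 37.1, 110 and 176 CPM against 496, 886 and 1184 CPM (2.99, SE 0.49, adjusted p = 0.00949). Myc was also called higher in TRULI_d10 than in DMSO_d5, at 39.7 and 22.7 CPM (log2 fold change 3.14, SE 0.64, adjusted p = 0.0133). The 3 lower ones by deposited name were the immediate early genes Ier2, Egr2 and Fos, the last of them named after its values were seen. Ier2 went from 159, 208 and 293 CPM to 60.8, 97.5 and 122 CPM. Egr2 went from 209, 186 and 321 CPM to 71.4, 66.7 and 145 CPM. The calls held in 7 of 13 alternatives for Ier2, 6 for Egr2 and 8 for Fos, with adjusted p up to 0.157, 0.182 and 0.133, and in 13 for Myc and 12 for Ccnd1. On leaving out 1 library, 1 (without DMSO_d5 replicate 2) to 6 (without TRULI_d5 replicate 3) of the 69 genes were called. The shares of all genes called in those fits are not given, so these counts describe only how calls moved.

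Of 18 FGF ligand genes, 11 had fewer than 10 counts in every library and 4 had none. Fgf10 was the most abundant ligand per length, with 108 to 140 CPM in DMSO_d5 and 112 to 179 CPM elsewhere, and was called in no comparison. Fgf3, a ligand of otic development, had 71 and 78 counts (20.6 and 21 CPM) in the libraries labelled DMSO_d10 and named TRULI_d5 replicates 2 and 3. It had 2 counts in the library named TRULI_d5 replicate 1, 1 to 6 counts in DMSO_d5 and 0 in the other 4 libraries. Fgf3 was thus high in 2 of the 3 libraries named TRULI_d5. By label, it was called at least 30.9-fold higher in DMSO_d10 than in TRULI_d10, against a floor of 3 counts per library (adjusted p = 0.0321). In that comparison 1.15% of all genes were called lower in TRULI_d10. By deposited name, the mean of TRULI_d5 (14.1 CPM, SD 11.7) exceeded the floor for TRULI_d10 (0.674 CPM) at least 20.9-fold (adjusted p = 0.0369). The library named TRULI_d5 replicate 1, at 0.611 CPM, was itself below that floor. The call held in 8 of 10 alternatives, and 6.37% of all genes were called lower.

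Of 19 adaptors and cascade genes, 7 were higher in each of the 4 libraries with low mt-Rnr2 than in each of the other 6, 1 (Hras) was lower and 11 overlapped. Over all 11861 genes, 12.7% were above and 11.6% below in this way, and no test was made because the sets of libraries were formed from the data. Map2k1, which encodes the kinase Mek1, had 771 to 1525 CPM in these 4 libraries and 353 to 544 CPM in the other 6. Frs2, the adaptor that docks to the receptor, had 38.7 to 73.2 CPM and 15.9 to 20.5 CPM. Grb2, which links the receptor complex to Ras, had 94.1 to 140 CPM and 42.6 to 68.4 CPM. Mapk3, which encodes the kinase Erk1 and was named after its values were seen, had 18.4 to 45.9 CPM in the 4 libraries and 44.5 to 61.1 CPM in the others, with overlap. Against DMSO_d5, TRULI_d10 had 4 of 19 such genes called higher and 1 lower, beside 11.9% and 9.29% of all genes, among them Map2k1 (log2 fold change 1.25, adjusted p = 0.027), Frs2 (1.66, adjusted p = 0.0205), Grb2 (1.36, adjusted p = 0.0164) and the phosphatase gene Ptpn11 (1.01, adjusted p = 0.0344). The lower one was Hras (-1.91, adjusted p = 0.03), and the decoy receptor gene Fgfrl1 was lower as well (-0.95, adjusted p = 0.0449), both named after their values were seen. These calls held in 5 (Fgfrl1) to 8 (Grb2 and Hras) of 12 alternatives. Of the 69 genes, 10 were called in this comparison, but 0 without DMSO_d5 replicate 2, 3 and 4 without DMSO_d5 replicates 1 and 3, and 17 and 14 without TRULI_d10 replicates 1 and 2. By deposited name, DMSO_d10 had 5 of 18 called higher than DMSO_d5 and 0 lower, beside 11.8% and 8.36% of all genes, with Map2k1 at 1.48 (adjusted p = 0.0138, held in 10 of 12 alternatives) and Ptpn11 at 1.30 (adjusted p = 0.0148, held in 8). Of the 69 genes, 10 were called here too, but 0 without DMSO_d5 replicate 2, 1 and 3 without DMSO_d5 replicates 1 and 3, and 21 without the library named DMSO_d10 replicate 1. The early targets Ier2, Junb and Egr2 were higher in each of the same 4 libraries than in the other 6, and the other 10 early targets overlapped. Junb had 2442 to 4009 CPM there and 108 to 694 CPM in the other 6. By label, these 3 genes alone of 13 early targets were called in TRULI_d10 against DMSO_d10, all higher, with Junb at 3.02 (SE 0.52, adjusted p = 0.0417), beside 1.14% of all genes called higher and 1.15% lower. The calls held in 10 of 11 alternatives for Junb, 8 for Ier2 and 7 for Egr2, with adjusted p up to 0.211, 0.171 and 0.21, and 1 (without DMSO_d10 replicate 2) to 15 (without TRULI_d10 replicate 1) of the 69 genes were called on leaving out 1 library. The shares of all genes called on leaving out 1 library are not given here, so these counts describe only how calls moved. Fits that left 1 library in a group assume that it varies like the others. The part of the low mt-Rnr2 in the differences above was not tested. Dusp6 was low in both sets outside DMSO_d5. Ier2 and Egr2 were above DMSO_d5 in the 4 libraries with low mt-Rnr2. In the high mt-Rnr2 libraries outside DMSO_d5 they were below it (Ier2 60.8 to 122 CPM, Egr2 66.7 to 145 CPM). Junb, Map2k1, Frs2 and Grb2 were above DMSO_d5 in the 4 libraries and overlapped it in those with high mt-Rnr2. Ptpn11 and Myc were also shifted in both sets, upward. Ptpn11 had 160 to 325 CPM against 112 to 143 CPM in DMSO_d5, and Myc 6.41 to 39.7 CPM against 0.927 to 5.02 CPM. This upward order was shared by 2.89% of the 11861 genes.

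**Figure D4:**
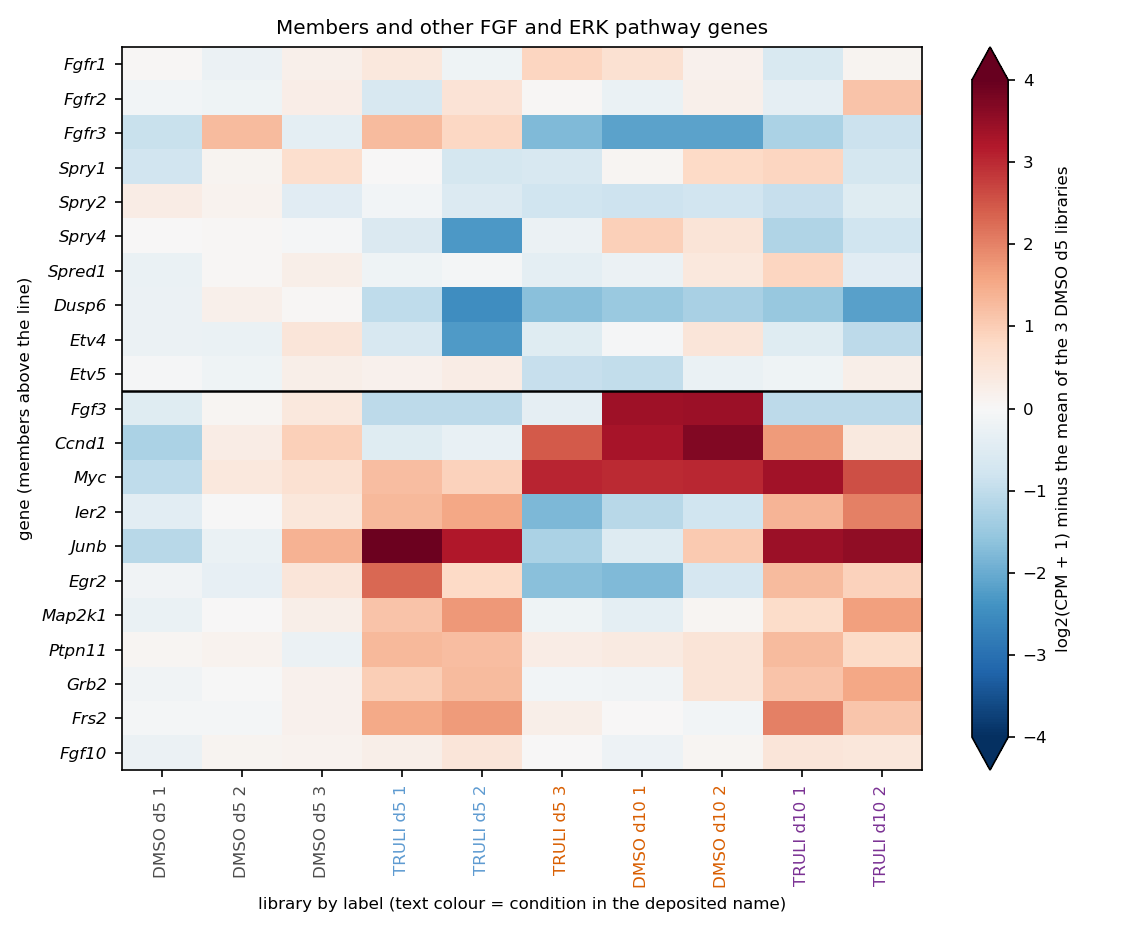
Level of the 10 genes (above the line) and of 11 other pathway genes in each library, as log2(CPM + 1) minus the mean of the 3 DMSO_d5 libraries, with the colour of the library name giving the condition in the deposited name. Dusp6 is blue in all 7 libraries outside DMSO_d5, and Junb, Map2k1, Grb2 and Frs2 are red in the libraries labelled TRULI_d5 replicates 1 and 2 and TRULI_d10.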

How the data were processed

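RNA-seq libraries were made from sorted supporting cells of cultured utricles, with at least 2 biological replicates per condition according to the study. The study's methods state alignment with STAR to mm10 (GRCm38). The labels name a TruSeq polyA kit and the study's methods a QIAseq FX Single Cell RNA kit. The authors deposited 1 table per library, which per the file headers holds the expected counts (estimated reads per gene, not normalized) made from these alignments, with effective lengths, in columns named as RSEM names them. The counting program is not given in the sources used here.

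Expected counts were rounded and joined to GENCODE M21 for gene class, and protein-coding genes were kept. Each comparison used its own groups, the filterByExpr filter and TMM factors. It was tested with edgeR 4.0.16 (R 4.3.3, quasi-likelihood test, two-sided) with Benjamini-Hochberg adjustment over all genes tested, and a gene was called at an adjusted p under 0.05. DESeq2 1.42.0 was an alternative. CPM were scaled by TMM over the 10 libraries, FPKM were recomputed from expected counts and effective lengths, and 95% intervals are 1.96 SE to either side. The scripts were tested on simulated counts. Libraries were grouped by label, and again by the condition in the deposited name, because these differ for 4 libraries. The 3 pairs of the same number in TRULI_d5 and DMSO_d5 by deposited name deviated together (correlations 0.36, 0.18 and 0.29), so the fit with the replicate number as a block is given beside that comparison. By label they did not (-0.13, 0.05 and -0.17).

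Total counts of 2463872 to 6255149 set the precision, with 3 counts, used as the limit of detection, worth 0.501 to 1.5 CPM of protein-coding counts. Reads shared between the related Fgfr or Sprouty genes could have been split by the authors' estimation, which makes low values such as those of Fgfr2 and Fgfr3 uncertain. Named beside the 10 genes were the 10 called genes of a pathway list with the lowest adjusted p, the ligand with the highest mean FPKM and the 5 genes most like the mean of the feedback and Ets genes. The 10 genes, lists and tests were chosen with earlier results of these data known.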

Additional observations from a re-analysis of the deposited data

How the results depend on the processing

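Dusp6 stayed below DMSO_d5 in every alternative of the comparisons with DMSO_d5. This follows from the order of the libraries, because every other library was below the same 3 controls, and adds no separate evidence. The Dusp6 calls depended on the settings. With 2 or 3 libraries a group, only large changes could be called, and the conflict between labels and names bears on every comparison except TRULI_d10 against DMSO_d5. For TRULI_d5 against DMSO_d5 by label, 0 of the genes were called, 1 by DESeq2, 1 on grouping by deposited name and 0 to 1 on leaving out 1 library. By deposited name, 1 was called, 2 by DESeq2, 2 with no filter, 0 with all 10 libraries in one fit and 3 with the replicate block. For TRULI_d10 against DMSO_d10 by label, 0 were called, 1 each by DESeq2, with no filter and with the replicate block, and 0 to 2 on leaving out 1 library. For TRULI_d10 against TRULI_d5, 0 were called by label and 1 by deposited name, and the latter became 0 with the replicate block and 0 on leaving out any library. For DMSO_d10 against DMSO_d5, 1 was called by label, 2 with no filter, 0 with all libraries in one fit, 2 with the replicate block and 0 to 1 on leaving out 1 library. By deposited name, 1 was called, 2 with no filter and 0 to 3 on leaving out 1 library. For TRULI_d10 against DMSO_d5, 2 were called, 1 with DESeq2 size factors, 1 with no filter, 0 with all libraries in one fit grouped by label, 1 with the replicate block and 1 to 2 on leaving out 1 library. Counts over all genes moved more. For TRULI_d5 against DMSO_d5 by label, edgeR called 1, DESeq2 250, all 10 libraries in one fit 2, the replicate block 0 and only agreeing libraries 157, and by deposited name 390, 706 with DESeq2, 648 with no filter, 123 with all 10 libraries and 1193 with the block. For TRULI_d10 against DMSO_d10 by label, 265 became 1435 with DESeq2, 1296 with no filter, 0 with all 10 libraries and 1881 with the block, and by deposited name 0 became 46 with DESeq2 and 198 with no filter. For TRULI_d10 against TRULI_d5, 0 by label became 4 with DESeq2 and 6 with the block, and 1728 by deposited name became 2867 with DESeq2. For DMSO_d10 against DMSO_d5 by label, 309 became 531 with DESeq2, 832 with no filter, 4 with all 10 libraries and 573 with the block, and 2193 by deposited name became 1121 with the block. For TRULI_d10 against DMSO_d5, 2356 became 11 with all 10 libraries grouped by label, a fit that was not run by deposited name. For the interaction, 0 became 44 (label) and 76 (deposited name) with DESeq2, 11 and 142 with no filter, and 1 by label with the block. Of the other values, mostly for single genes, 1565 kept sign and side of the threshold, 167 lost a call, 15 gained one and 69 reversed, and 35 counts of other pathway genes moved. The cause of these moves was not tested.

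In comparisons with 2 pairs the shared numbers were not shown to pair the samples, with correlations from -0.16 to 0.26. The replicate block turned log2 fold changes near 0 for Fgfr3 (-0.01, TRULI_d5 against DMSO_d5 by label), Spry4 and Etv5 (0.42 and -0.21, TRULI_d10 against TRULI_d5 by label), and Spry1 and Spred1 (0.02 and 0.01, DMSO_d10 against DMSO_d5 by deposited name). For TRULI_d5 against DMSO_d5 by label, Fgfr3 was at -3.68 with only libraries whose label and name agree. By deposited name in the same comparison, Etv4 was at 0.00 with every gene class.

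Leaving out 1 library turned the sign of these uncalled log2 fold changes, given as lowest and highest. For TRULI_d5 against DMSO_d5 by label they were Fgfr3 (-0.34, 1.58) and Etv5 (-0.25, 0.25), and by deposited name Spry1 (-0.33, 0.49), Spred1 (-0.30, 0.13) and Etv4 (-0.29, 0.29). For TRULI_d10 against DMSO_d10 by label they were Spred1 (-0.58, 0.72), Spry1 (-1.21, 0.36) and Spry2 (-0.13, 0.30), and by deposited name Dusp6 (-0.80, 0.65), Spry4 (-0.42, 1.35), Etv4 (-0.13, 1.61), Spry1 (-0.43, 1.16) and Spred1 (-0.35, 0.97). For TRULI_d10 against TRULI_d5 by label they were Dusp6 (-0.58, 0.16), Etv4 (-0.21, 0.48), Spry4 (-0.63, 0.20), Etv5 (-0.19, 0.32), Spry1 (-0.32, 1.28) and Spred1 (-0.26, 1.06), and by deposited name Spry1 (-0.92, 0.66), Spred1 (-0.44, 0.87) and Spry2 (-0.13, 0.29). For DMSO_d10 against DMSO_d5 by label they were Spred1 (-0.23, 0.40), Spry1 (-0.01, 0.77) and Etv4 (-0.09, 0.49), and by deposited name Fgfr1 (-0.19, 0.44). For TRULI_d10 against DMSO_d5 they were Spry1 (-0.82, 0.75), Etv5 (-0.19, 0.25), Fgfr1 (-0.62, 0.10) and Spred1 (-0.45, 0.84). For the interaction by label they were Etv4 (-0.39, 0.25), Spry1 (-0.70, 0.85) and Spred1 (-0.38, 0.90), and by deposited name Spry4 (-0.89, 0.85), Etv4 (-0.10, 1.62), Spry1 (-0.52, 1.02) and Spred1 (-0.31, 0.96).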
